A study of Sus scrofa with 6 samples.

Results

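The peroxiredoxins PRDX1 to PRDX6, with the glutathione peroxidase GPX4, the superoxide dismutases SOD1 and SOD2 and catalase (CAT), were examined in pig oocytes from follicles of different size. They were chosen by name, with earlier results of these data known, as the central enzymes that remove superoxide, hydrogen peroxide and lipid peroxides. All 10 were found among the 19271 genes of the count table, 9 of them under their own name and PRDX1 under its Ensembl identifier, ENSSSCG00000003914. The oocytes came from ovaries of prepubertal gilts slaughtered at an abattoir. Oocytes of the LO group were aspirated from large antral follicles (3 to 6 mm) and those of the SO group from small ones (1.5 to 1.9 mm), and neither group had a further treatment named in the labels. Cumulus cells had been removed from the oocytes before RNA was isolated. Each group had 3 libraries of pooled oocytes, so the values are averages over the oocytes of a follicle size class and not of single oocytes tested for competence. The question behind the comparison is how the transcripts of oocytes that differ in developmental competence differ.

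Peroxiredoxins reduce hydrogen peroxide with a reactive cysteine that is restored by thioredoxin in most members and by glutathione in PRDX6. They divide the cell between them: PRDX1, PRDX2 and PRDX6 are mainly cytosolic, PRDX3 is mitochondrial, PRDX5 is found in mitochondria, peroxisomes and cytosol, and PRDX4 lies in the endoplasmic reticulum. SOD1 in the cytosol and SOD2 in the mitochondrial matrix turn superoxide into hydrogen peroxide, which catalase removes in peroxisomes, while GPX4 reduces lipid peroxides within membranes. A growing and maturing oocyte holds many mitochondria and stores mRNA for the embryo, and antioxidant transcripts are among those it stores.

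Total counts ranged from 8015357 in LO library 3 to 56887282 in LO library 2. Principal component 1, which held 34.3% of the variance, placed LO library 3 at 39.1, against -25.4 to 10.8 for the others. Oocyte markers were abundant in both groups. ZP3, a zona pellucida protein, stood at 2093 ± 362 CPM (counts per 1000000 reads, scaled between libraries) in LO and 3101 ± 184 CPM in SO oocytes, GDF9, a growth factor of the oocyte, at 2194 ± 293 and 2582 ± 54.8 CPM, and ZAR1, a maternal effect gene, at 380 ± 38.5 and 446 ± 13.6 CPM (mean ± SD, n = 3 each, in that group order). The summed level of 11 oocyte markers was 12544 to 14799 CPM in LO and 17187 to 18317 CPM in SO libraries, without overlap (exact two-sided permutation test, p = 0.1, the smallest that 3 against 3 allows). Not every oocyte marker followed the sum. MOS (769 ± 71.0 and 791 ± 11.9 CPM), LHX8 (136 ± 6.95 and 136 ± 6.18 CPM) and OOSP2 (195 ± 60.1 and 221 ± 18.8 CPM), named after their values were seen, overlapped between the groups. The summed markers of other cells overlapped between the groups. By the same exact permutation test the 18 granulosa and cumulus markers summed to 193 to 313 CPM in LO and 169 to 336 CPM in SO libraries (p = 0.8), with KITLG and INHBB the highest. The sum hides unlike spreads between libraries. KITLG ranged from 88 to 110 CPM, but INHBB from 17.8 to 76.7 CPM and INHBA, named after its values were seen, from 9.04 to 64.9 CPM. INHBB and INHBA were both highest in LO library 3 and lowest in SO library 3. The 14 theca and stromal markers, led by TAGLN and COL1A2, summed to 51.9 to 58.6 and 57.2 to 59.5 CPM (p = 0.7), and the 16 blood, immune and endothelial markers, led by PECAM1 and CD3E, to 9.50 to 12.2 and 10.6 to 11.03 CPM (p = 0.9), by the same exact test. None of these markers was at 0 in every library, but the haemoglobin gene HBB averaged 0.0463 and 0.0431 CPM and the theca enzyme gene CYP17A1 0.00603 and 0.0358 CPM in LO and SO oocytes. Single theca and stromal markers did not all overlap: among those checked after their values were seen, TAGLN was lower in LO (24.8 to 29.2 CPM) than in SO libraries (30.7 to 31.1 CPM), while FBLN1 (10.2 to 12.0 and 8.24 to 9.53 CPM) and NR2F2 (4.504 to 5.067 and 2.81 to 3.46 CPM) were higher in LO libraries. In pooled oocytes, fewer cells of a type and less RNA per cell cannot be told apart.

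Levels were compared between genes in TPM, a relative transcript abundance that divides reads by gene length. SOD1 had the highest level, with 527 ± 39.6 TPM in LO and 589 ± 22.9 TPM in SO oocytes. PRDX2 followed with 231 ± 22.2 and 245 ± 8.29 TPM, and PRDX1 with 237 ± 18.4 and 227 ± 5.93 TPM in the same group order. These peroxiredoxins could not be ordered in TPM: PRDX2 stood above PRDX1 in 3 of the 6 libraries. PRDX3 came next, with 122 ± 5.77 TPM in LO and 135 ± 9.35 TPM in SO oocytes, and then CAT with 84.8 ± 1.41 and 71.5 ± 3.31 TPM. Each of SOD1, PRDX3 and CAT kept a range over all 6 libraries apart from that of its neighbours in this order.

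Below catalase, PRDX4, SOD2 and PRDX5 had overlapping ranges. PRDX4 spanned 31.4 to 61.3 TPM over the 6 libraries, SOD2 37.6 to 50.9 TPM and PRDX5 30.5 to 49.6 TPM. In TPM, PRDX4 was the lower of the pair with SOD2 in the 3 LO libraries and the higher in the 3 SO libraries. In CPM it was the lower in all 6 libraries, at 10.9 to 21.5 CPM against 42.5 to 59.9 CPM for SOD2. GPX4, at 15.1 to 28.5 TPM, lay below all of these, and PRDX6 was the lowest member at 2.73 to 4.10 TPM. The gene models by which the deposited TPM were divided differ widely in length, with that of PRDX2 at 7.84 times and that of PRDX6 at 6.56 times the length of SOD1, and whether the oocyte's transcripts have those lengths was not tested. The order of several members depends on these lengths. In CPM, which is not divided by length, PRDX2 stood above SOD1, at 450 ± 51.9 CPM in LO and 474 ± 20.9 CPM in SO oocytes. SOD1 stood at 131 ± 11.5 and 145 ± 7.46 CPM in the same group order. PRDX1, at 218 ± 20.7 and 208 ± 5.89 CPM, also stood above SOD1, and PRDX2 lay above PRDX1 in all 6 libraries. CAT, at 121 ± 2.24 and 102 ± 5.68 CPM, stood above PRDX3, at 59.0 ± 2.17 and 64.9 ± 5.4 CPM.

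**Figure D1:**
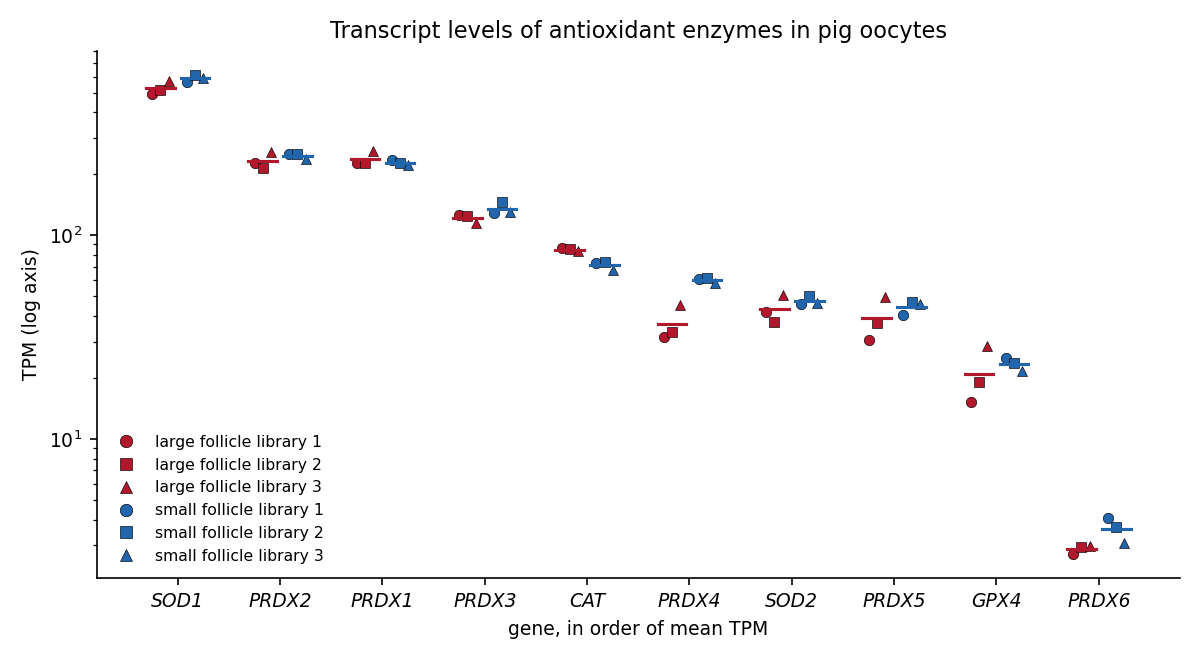
Transcript level of each gene in TPM (log axis) for each library, with genes in order of mean level. Red symbols are LO and blue symbols SO libraries, and horizontal lines are group means (n = 3 each). SOD1 stands highest at 492 to 612 TPM and PRDX6 lowest at 2.73 to 4.10 TPM, and PRDX4 is the gene whose groups lie farthest apart.

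Between the follicle sizes, 8 of the 10 genes had a lower and 2 (PRDX1 and CAT) a higher mean in LO oocytes. None of the 10 passed edgeR's quasi-likelihood test at an adjusted p under 0.05 over all 14091 genes tested, of which 9 passed (0.0639%). At an unadjusted p under 0.05 there were 2 of 10, PRDX4 and CAT, against 18.0% of all genes. With library size as the only scaling, 5 of 10 had an unadjusted p under 0.05, against 17.9% of all genes. DESeq2's Wald test called PRDX4 and CAT, against 5.04% of all genes, and limma on log2(TPM + 1) called none of the 10, against 0 of all genes. By limma 2 of the 10 had an unadjusted p under 0.05, against 2193 of all 14091 genes. The median log2 difference of the 10 genes was -0.15, beside 0.0039 for all genes tested, whose interquartile range was -0.17 to 0.15. The libraries of the groups did not overlap for 3 of 10 genes (PRDX3, PRDX4 and CAT), against 23.7% of all genes, which for 10 genes is near the share of genes in general. Whether replicates came from separate ovary collections is not stated, so each p-value rests on a spread that may be purely technical.

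**Figure D2:**
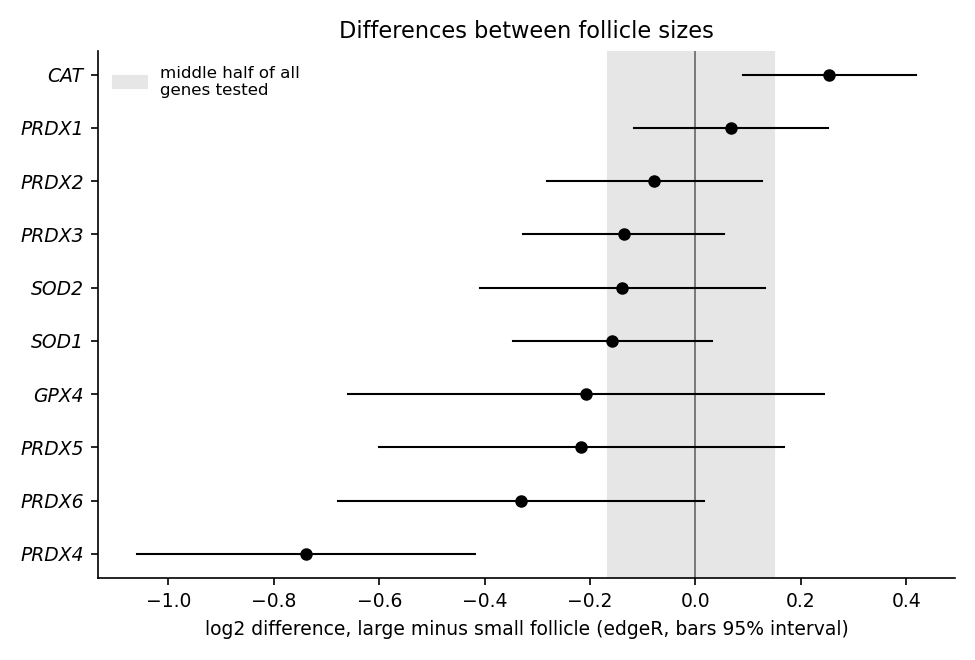
Log2 difference between LO and SO oocytes for each gene (points, edgeR) with its 95% interval (bars), and the interquartile range of all genes tested (grey band, -0.17 to 0.15). PRDX4 at -0.74 and CAT at 0.25 are the genes whose intervals leave 0.

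PRDX4, the peroxiredoxin of the endoplasmic reticulum, which uses peroxide formed there to oxidise protein disulphide isomerases, lies on chromosome X from 19800153 to 19819575 (Sscrofa11.1). It was read at 10.9, 11.3 and 16.1 CPM in LO libraries 1, 2 and 3, and at 20.9, 21.5 and 19.8 CPM in SO libraries 1, 2 and 3. All LO libraries lay below all SO libraries, and LO library 3 lay between the other LO libraries and the SO group. The level in LO oocytes was 0.599 of that in SO oocytes, a log2 difference of -0.74 (SE 0.14, 95% interval -1.06 to -0.42). This did not pass over all genes (edgeR, adjusted p = 0.0849), although PRDX4 ranked 80 of 14091 by p. DESeq2 called it (adjusted p = 0.000416), as did edgeR without a filter on low counts (adjusted p = 0.0428, where 0.270% of all genes passed) and without LO library 3 (log2 difference -0.90, adjusted p = 0.00319). Over all 16 alternatives the log2 difference lay between -0.90 and -0.62 and the adjusted p between 0.000416 and 0.418. LO library 3 held only 130 reads of PRDX4, which put its level at 13.4 to 19.1 CPM (exact Poisson 95% interval, counting error only).

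Because a ratio of genes within a library does not depend on how libraries are scaled, PRDX4 was also set against each of the other 9 enzymes. Its TPM relative to that of CAT was 0.366, 0.391 and 0.546 in LO libraries 1, 2 and 3, and 0.837, 0.830 and 0.855 in SO libraries 1, 2 and 3. Relative to PRDX2 it was 0.140, 0.157 and 0.178 in the LO libraries, against 0.246, 0.244 and 0.246 in the SO libraries. The SO libraries lay close together in both ratios, and every LO library lay below them. The ratio did not overlap between the groups for 8 of the 9 partners, and its LO mean was 0.516 (CAT) to 0.757 (PRDX6) of the SO mean. The exception was PRDX6, with ratios of 11.3 to 15.3 in LO and 14.9 to 18.8 in SO libraries. PRDX4 made up 4.90%, 5.24% and 6.26% of the summed peroxiredoxin TPM in LO libraries 1, 2 and 3, and 8.54%, 8.34% and 8.34% in SO libraries 1, 2 and 3. These ratios were computed after the values of PRDX4 had been seen and are given without a test. All of them share PRDX4, the member with the smallest p, whose groups already did not overlap in CPM. The count of partners is therefore not a set of separate results. CAT, the partner with the lowest ratio of means, had itself a higher mean in LO oocytes.

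**Figure D3:**
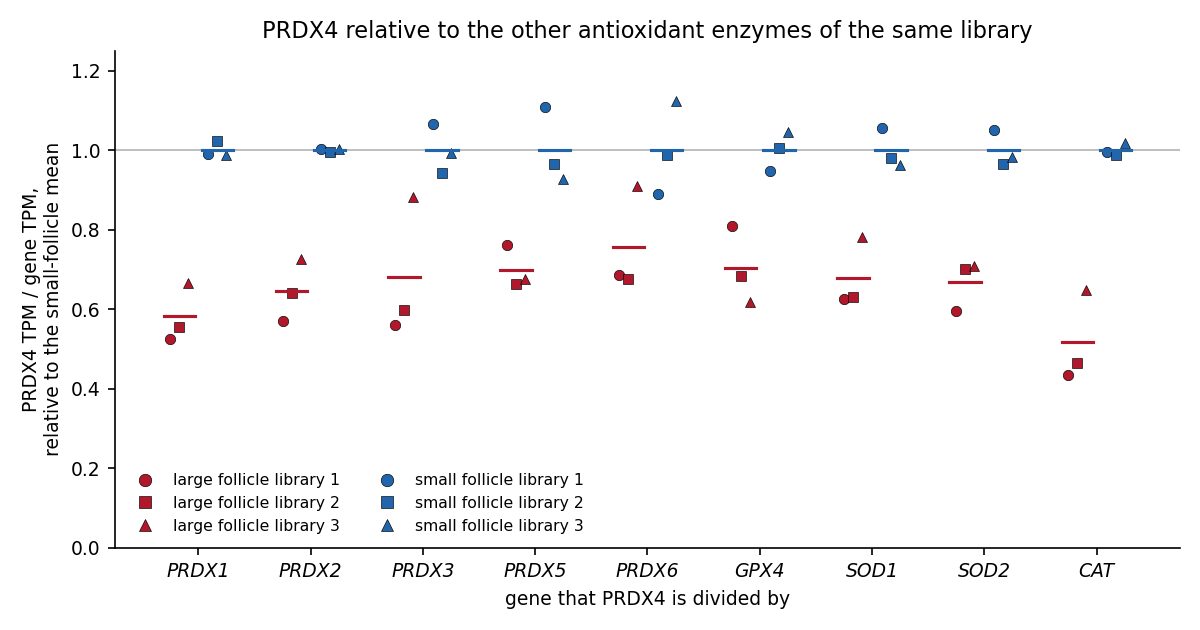
PRDX4 TPM divided by the TPM of each other gene of the same library, scaled so that the SO mean is 1. Red symbols are LO and blue symbols SO libraries, and lines are group means (n = 3 each). The red symbols lie below the blue ones for every partner but PRDX6, with a mean of 0.516 relative to CAT.

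CAT, which splits hydrogen peroxide in peroxisomes, lies on chromosome 2 from 26493664 to 26533881. It stood at 123.5, 119.1 and 121.2 CPM in LO libraries 1, 2 and 3, and at 103.0, 106.6 and 95.5 CPM in SO libraries 1, 2 and 3. The groups did not overlap, and the LO libraries differed among themselves by less than the SO ones did. The log2 difference was 0.25 (SE 0.073, 95% interval 0.089 to 0.42), which did not pass over all genes (edgeR, adjusted p = 0.137). DESeq2 called it (adjusted p = 0.0387), as did edgeR without LO library 3 (log2 difference 0.25, adjusted p = 0.0396). CAT kept a higher mean in LO oocytes under all 16 alternatives, with log2 differences of 0.20 to 0.28 and adjusted p of 0.0387 to 0.424. The ratio of CAT to SOD1 in TPM was 0.175, 0.165 and 0.146 in LO libraries 1, 2 and 3, and 0.129, 0.120 and 0.115 in SO libraries 1, 2 and 3, without overlap. Of 5 such ratios, computed after the values were seen and given without a test, those to SOD1, SOD2, PRDX2 and PRDX3 did not overlap. That to PRDX1 did, at 0.323 to 0.381 in LO and 0.306 to 0.327 in SO libraries. Ratios of CAT to GPX4, PRDX5 and PRDX6 were not computed, so the 5 do not cover all partners among the members.

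Of the cytosolic peroxiredoxins, PRDX1 and PRDX2 were the most abundant. PRDX1, on chromosome 6 from 165847390 to 165859918, stood at 209, 204 and 242 CPM in LO libraries 1, 2 and 3, and at 212, 210 and 201 CPM in SO libraries 1, 2 and 3. The groups overlapped, with LO library 3 above all the others. Its log2 difference of 0.068 (SE 0.082, 95% interval -0.12 to 0.25) did not pass and was -0.018 without that library. PRDX2, on chromosome 2 from 66207829 to 66211474, is also a major protein of red blood cells. Their marker HBB averaged 0.046 CPM in LO and 0.043 CPM in SO oocytes, and whether such cells gave reads of PRDX2 was not tested. PRDX2 stood at 439, 403 and 506 CPM in LO and at 477, 493 and 452 CPM in SO libraries 1, 2 and 3, with overlap and a log2 difference of -0.079 (SE 0.091, 95% interval -0.28 to 0.13). Its span shares 589 bases with RNASEH2A, a ribonuclease subunit gene, and reads there could have been counted for either gene. PRDX6, which also has phospholipase activity, lies on chromosome 9 from 115857629 to 115868898 and was the thinnest measured, with 40 reads in LO library 3. Its span shares 554 bases with an unnamed neighbour, LOC100624136. Its levels were 4.46, 4.67 and 4.94 CPM in LO libraries 1, 2 and 3, and 6.58, 6.07 and 4.93 CPM in SO libraries 1, 2 and 3. SO library 3 lay with the LO libraries, and the log2 difference of -0.33 (SE 0.15, 95% interval -0.68 to 0.016) did not pass (edgeR, adjusted p = 0.295).

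The enzymes of mitochondria had lower means in LO oocytes, and none passed. PRDX3, on chromosome 14 from 129079050 to 129090790, stood at 61.1, 59.0 and 56.8 CPM in LO libraries 1, 2 and 3, and at 61.3, 71.2 and 62.3 CPM in SO libraries 1, 2 and 3. Its groups did not overlap, but the gap between them was 61.1 to 61.3 CPM, and the log2 difference was -0.14 (SE 0.085, 95% interval -0.33 to 0.054). SOD2, the manganese superoxide dismutase on chromosome 1 from 7679352 to 7689564, stood at 48.6, 42.5 and 59.9 CPM in LO and at 52.5, 58.6 and 53.2 CPM in SO libraries 1, 2 and 3. PRDX5, on chromosome 2 from 7798672 to 7801955, stood at 8.09, 9.57 and 13.3 CPM in LO and at 10.6, 12.5 and 12.0 CPM in SO libraries 1, 2 and 3. In both genes LO libraries 1 and 2 lay below every SO library and LO library 3 above all of them. Their log2 differences were -0.14 (SE 0.12, 95% interval -0.41 to 0.13) for SOD2 and -0.22 (SE 0.17, 95% interval -0.60 to 0.17) for PRDX5.

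GPX4 and SOD1 showed the same arrangement of libraries in part. GPX4, the enzyme that restrains lipid peroxidation and ferroptosis, lies on chromosome 2 from 77321568 to 77323931, so that 4 of the 10 genes are on chromosome 2. It stood at 9.15, 11.2 and 17.5 CPM in LO libraries 1, 2 and 3, and at 14.9, 14.4 and 12.8 CPM in SO libraries 1, 2 and 3. LO library 3, with 142 reads, was the highest of the 6 and the other LO libraries the lowest. The log2 difference of -0.21 had the widest 95% interval of the 10 genes, -0.66 to 0.24 (SE 0.20). SOD1, the copper and zinc superoxide dismutase, lies on chromosome 13 from 195326573 to 195335273 and shares 96 bases with the neighbouring splicing factor gene SCAF4. It stood at 122.7, 125.5 and 143.9 CPM in LO libraries 1, 2 and 3, and at 139, 153 and 144 CPM in SO libraries 1, 2 and 3, a log2 difference of -0.16 (SE 0.084, 95% interval -0.35 to 0.032).

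LO library 3 was the highest of its group for 8 of the 10 genes, all but PRDX3 and CAT. Relative to the mean of all libraries, the median deviation of the 10 genes was -0.13, -0.17 and 0.13 on the log2 scale in LO libraries 1, 2 and 3, and 0.010, 0.16 and -0.0080 in SO libraries 1, 2 and 3. The summed TPM of the 10 genes was 1276, 1296 and 1459 in LO libraries 1, 2 and 3, and 1427, 1494 and 1419 in SO libraries 1, 2 and 3. The summed granulosa and cumulus markers were also highest within the LO group in library 3, at 313 CPM against 194 and 193 CPM. In SO libraries 1, 2 and 3 they summed to 336, 274 and 169 CPM, beside the median deviations of 0.010, 0.16 and -0.0080. LO library 3 was also the shallowest, and the part of its depth or of these markers in these results was not tested. Without LO library 3, edgeR called 4 of the 10 genes, against 13.2% of all genes. In that fit 8 of the 10 had an unadjusted p under 0.05, against 28.7% of all genes. PRDX4, GPX4 (log2 difference -0.46, adjusted p = 0.0331) and SOD1 (-0.24, adjusted p = 0.0439) were lower in LO oocytes there and CAT was higher. That comparison sets 2 libraries against 3.

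**Figure D4:**
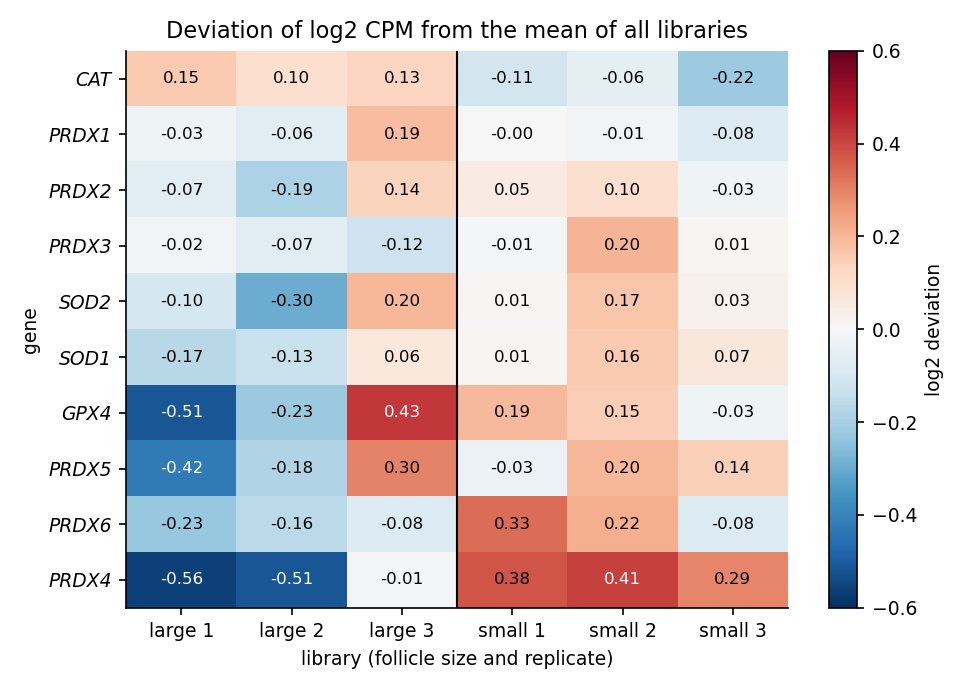
Deviation of log2 CPM of each gene from its mean over all 6 libraries, with LO libraries left of the line and SO libraries right of it. Red cells are above and blue cells below the mean. GPX4 ranges from -0.51 to 0.43 within the LO group, while CAT is above its mean in all 3 LO libraries and PRDX4 above its mean in all 3 SO libraries.

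The wider redox network was read in 9 lists of 171 genes in all, of which 146 were tested. None of the 146 passed edgeR's adjusted p of 0.05, 24 of them (16.4%) had an unadjusted p under 0.05 against 18.0% of all genes, and DESeq2 called 8 against 5.04%. List medians lay between -0.070 (glutathione system) and 0.063 (partners of superoxide dismutase and sources of superoxide) on the log2 scale, beside 0.0039 for all genes. Without LO library 3, 22 passed by edgeR, against 13.2% of all genes. The filter kept more list genes in that fit than the 146, for example 23 of the glutathione system and not 22.

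In the reducing systems that feed these enzymes, the share of genes at an unadjusted p under 0.05 was 9.09% for glutathione, 16.7% for thioredoxin, 18.8% for supply of NADPH and 14.3% for the NRF2 pathway, beside 18.0% of all genes. The 2 of 22 tested glutathione genes that reached it both had a lower mean in LO oocytes. MGST2, a microsomal glutathione transferase, stood at 35.9 ± 7.80 CPM in LO and 50.8 ± 4.54 CPM in SO oocytes (log2 difference -0.51, SE 0.15), and GPX3, a secreted glutathione peroxidase, at 143 ± 17.2 and 179 ± 19.8 CPM (-0.34, SE 0.11). Of the thioredoxin system with peroxiredoxin repair, 3 of 18 did: TXNDC17, a thioredoxin-related protein, stood lower (-0.32, SE 0.13), TXNDC9, a regulator of protein folding, higher (0.18, SE 0.073), and TXNDC12, named after its value was seen, lower (-0.35, SE 0.15). Of 16 genes for supply of NADPH, 3 did, among them the transaldolase gene TALDO1 (-0.35, SE 0.10) and the ribose phosphate isomerase gene RPIA (0.28, SE 0.12). In the NRF2 pathway 2 of 14 did. NFE2L2, which encodes the transcription factor NRF2 that switches on antioxidant genes, stood at 102 ± 12.6 CPM in LO and 85.8 ± 1.62 CPM in SO oocytes (0.25, SE 0.094), and KEAP1, which holds NRF2 inactive, at 5.56 ± 0.317 and 6.93 ± 0.913 CPM (-0.33, SE 0.14). Neither passed (edgeR, adjusted p = 0.210 and 0.266). The groups did not overlap in CPM for either gene, as for 23.7% of all genes, but in TPM those of NFE2L2 did, with 117.7 TPM in LO library 3 against 112.8 to 119.9 TPM in SO libraries.

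Of the genes of oxidative folding in the endoplasmic reticulum, where PRDX4 acts, none of 21 tested passed edgeR's adjusted p of 0.05. An unadjusted p under 0.05 was reached by 6 of them (28.6%, beside 18.0% of all genes), 4 with a lower and 2 with a higher mean in LO oocytes. ERP29, a folding factor related to protein disulphide isomerase, stood at 8.72 ± 2.24 CPM in LO and 15.1 ± 0.683 CPM in SO oocytes (log2 difference -0.75, SE 0.16; edgeR, adjusted p = 0.0930). ERO1B, an oxidase that forms disulphides and produces peroxide, stood at 214 ± 3.38 and 174 ± 5.79 CPM (0.30, SE 0.066; edgeR, adjusted p = 0.0970). The other four, named after their values were seen, were the disulphide isomerase gene P4HB (-0.43, SE 0.10), the sulphydryl oxidase gene QSOX1 (-0.34, SE 0.081) and the thioredoxin domain genes TXNDC5 (-0.28, SE 0.079) and TMX3 (0.33, SE 0.096). In TPM, P4HB was 120, 107 and 137 in LO and 159, 165 and 165 in SO libraries 1, 2 and 3, while ERO1B was 369, 372 and 353 in LO and 292, 290 and 311 in SO libraries 1, 2 and 3. DESeq2, which called 5.04% of all genes, called ERP29, P4HB, QSOX1 and TXNDC5 as lower and ERO1B as higher.

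GPX4 is a selenoprotein, and of 18 genes for selenoprotein synthesis and selenoproteins 4 had an unadjusted p under 0.05 (22.2%, beside 18.0% of all genes). SECISBP2L, related to the factor that binds the selenocysteine insertion element, stood higher in LO oocytes (246 ± 36.2 CPM, against 194 ± 12.1 CPM in SO oocytes), as did LRP8, a receptor that takes up selenoprotein P (11.04 ± 1.06 and 8.43 ± 0.141 CPM). The other two, named after their values were seen, were SEPSECS, an enzyme of selenocysteine synthesis (0.21, SE 0.072), and the selenoprotein gene SELENOW, which stood lower at 2.75 ± 1.003 CPM in LO and 4.26 ± 0.452 CPM in SO oocytes (-0.70, SE 0.24). Of 15 peroxisome genes 4 did (26.7%), 3 of them with a lower mean in LO oocytes, with PEX14, part of the import pore, lower (-0.24, SE 0.072) and PEX13, its partner, higher (0.25, SE 0.086). No gene reached an unadjusted p under 0.05 among 10 partners of superoxide dismutase and sources of superoxide, where the copper chaperone gene ATOX1 differed by -0.38 (SE 0.21) and the lipoxygenase gene ALOX15 by 0.29 (SE 0.18). None did among 12 genes of iron handling and lipid peroxide defence, where the transferrin receptor gene TFRC differed by -0.24 (SE 0.11) and DHODH, a mitochondrial enzyme of pyrimidine synthesis, by -0.25 (SE 0.13).

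**Figure D5:**
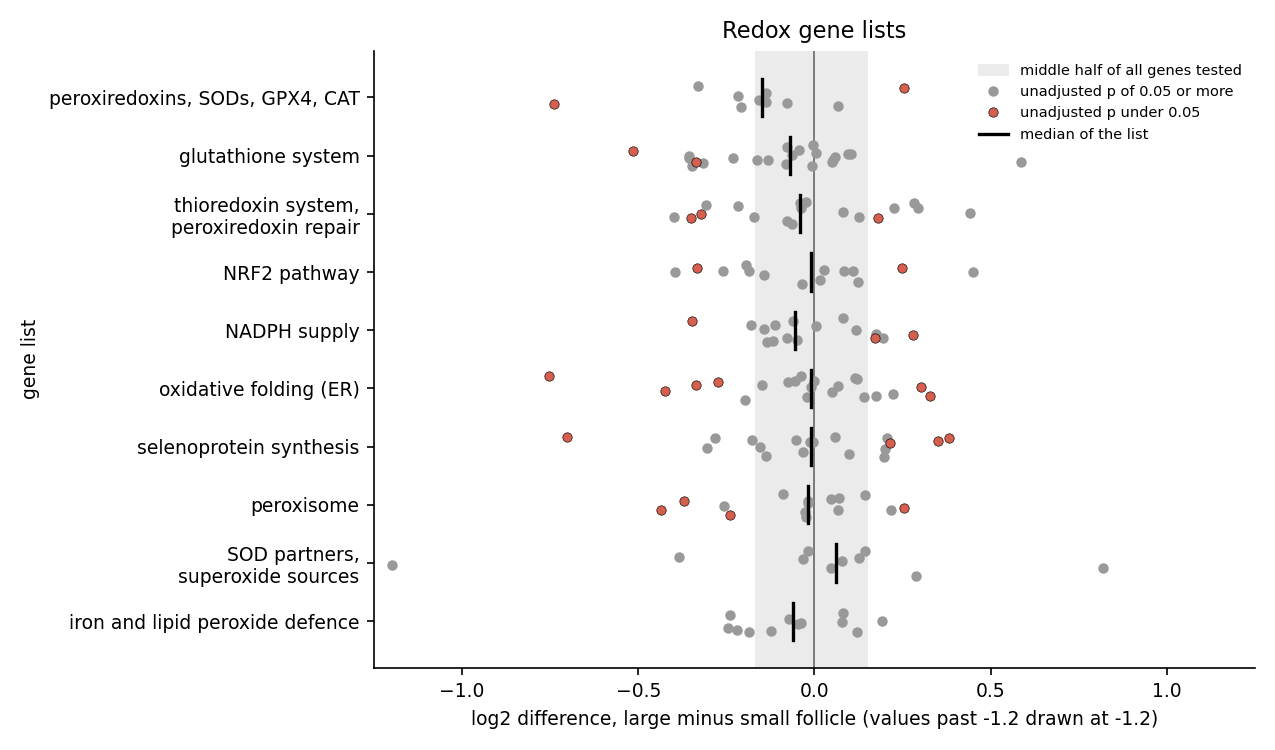
Log2 difference between LO and SO oocytes (edgeR) for each tested gene of the 10 lists, 1 point a gene, with list medians as black lines and the interquartile range of all genes tested as a grey band (-0.17 to 0.15). Red points have an unadjusted p under 0.05 and stand on both sides of 0 in most lists, with 4 lower and 2 higher for oxidative folding in the endoplasmic reticulum (ER).

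The genes whose profile over the 6 libraries was most like that of PRDX4 were sought among 9159 genes of at least 5 CPM by the root mean square distance of centred log2 CPM. The 5 closest were IGFBP6, a binding protein of insulin-like growth factors (distance 0.060), POFUT2, a fucosyltransferase of the endoplasmic reticulum (0.062), CTSF, a lysosomal protease (0.078), FKBP8, a protein of the mitochondrial outer membrane (0.079), and UQCRC2, a subunit of respiratory complex III (0.088), beside a median distance of 0.44. Since they were picked for following PRDX4 over these same libraries, their lower level in LO oocytes was fixed by that choice. Their log2 differences were -0.73 to -0.57, and none passed over all genes (edgeR, adjusted p of 0.0849 to 0.104).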

How the data were processed

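Libraries were prepared from RNA of denuded oocytes with a directional kit, and the protocol gives 360 oocytes without saying whether per group or in all, per the labels' protocols. The authors deposited whole-number read counts per gene, not normalised, and TPM, named so per the file headers. Per the submitters' processing notes, reads were placed on Sscrofa11.1. No aligner, counting tool, annotation release or strand setting is named in the sources used here. Of 19296 rows, 25 named by a date were left out (0.153% of the reads on average). Of 4604 rows named by an Ensembl identifier, 853 were given the symbol of a name table. Positions were looked up in RefSeq genes of that build.

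Counts were tested with edgeR 4.0.16 (R 4.3.3; quasi-likelihood F test, TMM factors, filterByExpr, robust estimation, group as the only term) over all genes with Benjamini-Hochberg adjustment. CPM are counts scaled by TMM library sizes. Log2 differences are large minus small follicles, with SE as its size over the root of F, and 95% intervals from the fit's degrees of freedom. DESeq2 1.42.0 and limma 3.58.1 (log2(TPM + 1), so that differences of low genes are understated) were alternatives, beside other scaling, filters, a length correction, thinning, a replicate term and leaving out each library. The fits were tested on simulated counts. No libraries of a group were duplicates: their counts differed beyond sampling (chi-square over its degrees of freedom, 9.90 to 20.9).

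The members and lists were chosen with earlier results of these data known. Named genes are all 10 members, the 2 genes with the smallest p of at least 1 CPM in each other redox list, since none passed, GDF9, ZP3 and ZAR1, the 2 highest markers of each list of other cells, and the 5 genes most like the member with the smallest p. Counting intervals cover counting error only, since reads were counted without molecular identifiers as far as the sources say.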

Additional observations from a re-analysis of the deposited data

How the results depend on the processing

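Of 160 values of the 10 enzymes under 16 alternatives, 152 kept their direction and their side of the adjusted p of 0.05, 7 were called in addition and 1 changed sign (PRDX1, -0.018 on the log2 scale without LO library 3). The count of genes called was 9 in the main comparison. It was 0 with DESeq2's size factors in edgeR (2525 at an unadjusted p under 0.05), 0 with limma on TPM (2193), 14 with library size alone, 18 at 5 CPM, 52 without a filter and 710 by DESeq2. It was 24 with the replicate block, 42 with a length correction and 36 with the length correction and the replicate block. Leaving out single libraries gave 0 to 1899 genes, with 0 without LO library 2 or SO library 1, 2 or 3 (1881, 1533, 1448 and 1918 at an unadjusted p under 0.05), 77 without LO library 1 and 1899 without LO library 3. The cause was not tested.

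Of the 10 enzymes, 2 were called by DESeq2 (PRDX4 at -0.74 and CAT at 0.25), against 5.04% of all genes. Without a filter 1 was called (PRDX4 at -0.76), against 0.270% of all genes. With single libraries left out 0 to 4 were called, with 4 without LO library 3, against 13.2% of all genes. At an unadjusted p under 0.05 there were 5 with library size alone, against 17.9% of all genes, and 2 to 8 with single libraries left out. Over all genes the latter fits gave from 1448 of 14408 without SO library 2 to 4143 of 14429 (28.7%) without LO library 3. With single libraries left out, log2 differences were -0.90 to -0.66 for PRDX4, 0.21 to 0.28 for CAT, -0.46 to -0.036 for GPX4, -0.24 to -0.12 for SOD1 and -0.018 to 0.11 for PRDX1. The other redox lists held 8 called genes by DESeq2, against 5.04% of all genes. They held 0 to 22 with single libraries left out, with 22 without LO library 3, against 13.2% of all genes. Of 288 values of 18 named list genes, 275 were unchanged in call and direction, 13 were called in addition and 0 changed sign.

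Same-numbered libraries did not deviate together (correlations -0.10, -0.025 and -0.24 for numbers 1, 2 and 3). With 3 libraries a group this cannot show whether same-numbered libraries were collected together, which is not stated. With the replicate block PRDX4 had an adjusted p of 0.0876 and CAT of 0.324 by edgeR. Summed markers of other cells, large minus small follicles, changed sign with single libraries left out. The range was -1.14 to 0.21 CPM for blood, immune and endothelial markers (0.031 and 0.21 without LO library 2 or 3), -72.4 to 11.3 CPM for granulosa and cumulus markers (11.3 without SO library 1) and -2.96 to 0.39 CPM for theca and stromal markers (0.39 without LO library 1). Depth limits PRDX6, PRDX5, PRDX4 and GPX4, with 40 to 142 reads in LO library 3.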

Other observations

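Among glutathione peroxidases, GPX4 was not the most abundant transcript. GPX3, which encodes the secreted form, stood at 303 ± 30.6 TPM in LO and 383 ± 42.5 TPM in SO oocytes (n = 3 each), above GPX4 at 20.9 ± 6.92 and 23.4 ± 1.79 TPM in every library. GPX1, the cytosolic form, stood at 15.2 ± 5.55 and 16.0 ± 1.11 TPM in the same group order, and GPX2, GPX5, GPX6 and GPX7 reached at most 2.09 TPM in any library. GSR, which regenerates glutathione, stood at 432 ± 14.8 and 419 ± 18.6 TPM, below SOD1 in every library. GSTM3, a glutathione transferase, stood at 547 ± 42.1 and 566 ± 47.7 TPM, beside 527 ± 39.6 and 589 ± 22.9 TPM for SOD1. In CPM, which is not divided by length, the mean of GSR was above that of SOD1, at 366 and 353 CPM against 131 and 145 CPM. SRXN1, the sulphiredoxin that repairs overoxidised peroxiredoxins, was scarce by comparison, at 1.52 ± 0.672 TPM in LO and 1.15 ± 0.680 TPM in SO oocytes, and NQO1, a common target of NRF2, stood at 0.686 ± 0.0719 and 0.791 ± 0.391 TPM. These genes were singled out after their values were seen, and their levels are given without a test.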
